A study of Mus musculus with 18 samples.

Results

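Nodal signaling is represented here by 9 of its genes, *Nodal*, *Gdf3*, *Tdgf1*, *Acvr2b*, *Lefty1*, *Lefty2*, *Foxh1*, *Smad7* and *Skil*. They were picked by gene symbol, with earlier results of these data known, from the 24369 genes of the deposited expression table and were all found in it. Nodal is a ligand of the TGF-β family that binds activin receptors together with the coreceptor encoded by *Tdgf1* (Cripto). The receptors phosphorylate Smad2 and Smad3, which enter the nucleus with Smad4 and bind DNA beside partners such as Foxh1, and among the known targets of the pathway are *Nodal* itself and its antagonists *Lefty1* and *Lefty2*. In the mouse, the pathway keeps the epiblast pluripotent and later patterns the embryo, and in mouse embryonic stem cells (mESCs) it runs on ligands that the cells make themselves.

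The cells were E14 mESCs of the genotype Rex1GFPd2-Cas9, in which a destabilized GFP reports *Rex1* (*Zfp42*), a gene of naive pluripotency, and Cas9 is expressed. A time course held 3 libraries each of day 0, before differentiation, and of days 1, 2 and 3 of differentiation. A second set held sorted Rex1GFP-positive (GFP+) cells with 2 libraries each of wild-type, *Nprl2* KO (Nprl2-/-) and *Tsc2* KO (Tsc2-/-), all of which carry the reporter and Cas9 too. Nprl2 is a subunit of the Gator1 complex and Tsc2 a subunit of the TSC complex, both of which restrain the kinase complex mTORC1. The KO lines were made with CRISPR by deleting an exon on both alleles and were picked as clones, and the labels do not say whether the 2 libraries of a genotype came from separate clones or cultures, so p-values measure only the spread between these libraries. The line is grown with serum and LIF on feeder cells, and the general methods of the study induce differentiation in NDiff227 medium without LIF and the inhibitors of 2iL medium. The culture before day 0 and the library kit of the time course are not given in the sources used here, so levels were not compared between the sets.

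Totals of estimated counts lay between 12503005 and 15305054 per library in the time course and between 8610357 and 13780861 in GFP+ cells, and 3 counts, the most that a count of 0 allows for counting error, came to between 0.196 and 0.348 CPM, in which counts are divided by the size of the library. The targeted transcripts were lower in their own lines. The mean of *Nprl2* was 12.1 ± 0.612 CPM (SD, n = 2) in wild-type cells against 6.23 ± 0.383 CPM in its own KO, and that of *Tsc2* was 154 ± 2.27 CPM against 65.5 ± 2.57 CPM. The cells carried the markers of mESCs, with *Zfp42* between 671 and 753 CPM on day 0 and between 9.64 and 12.8 CPM on day 3, while the summed level of 6 formative epiblast markers went from between 233 and 296 CPM to between 2544 and 3154 CPM. The summed level of 5 neural markers went from between 19.9 and 27.7 CPM on day 0 to between 291 and 358 CPM on day 3, and 6 mesendoderm markers summed to at most 16.4 CPM in any library. The part of these markers in the results was not tested. In bulk RNA, fewer cells of a type and less RNA per cell cannot be told apart. Of 10 feeder fibroblast markers, *Lum* was at or near 0 everywhere. The 10 summed to between 281 and 387 CPM in 5 of the 6 GFP+ libraries and to 83.5 CPM in *Tsc2* KO replicate 2. For the genes picked to represent Nodal signaling, results of *Tsc2* KO are therefore given below without this library where it changed a call. Calls of other single genes in *Tsc2* KO, among them the other pathway genes, were not checked without this library.

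All 9 members are protein-coding, and their positions are those of RefSeq on GRCm38.p6. *Lefty1* (chr1:180935022-180938401) and *Lefty2* (chr1:180893108-180899107) are neighbours on the plus strand, with 35914 bases between them. *Nodal* lies at chr10:61417972-61425338, *Tdgf1* at chr9:110939608-110946158, *Acvr2b* at chr9:119401583-119442148, *Gdf3* at chr6:122605403-122610087, *Foxh1* at chr15:76667829-76671614 and *Skil* at chr3:31095058-31122923, and that of *Smad7* is given with its values.

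The coding sequences of *Lefty1* and *Lefty2* (1107 bases each in GENCODE M21) were identical at 1017 aligned bases, or 91.9%. This matters for their values, because kallisto must divide reads that fit both.

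Of the 31-base windows of the *Lefty1* transcript, 25.0% also occurred in *Lefty2*, and 16.3% of those of *Lefty2* occurred in *Lefty1*. Of the windows of *Tdgf1*, 17.4% occurred in the processed pseudogene *Tdgf1-ps1*, and of those of *Gdf3*, 3.29% occurred in another gene. At most 0.194% of the windows of the other 5 members did so. *Lefty1* and *Lefty2* values therefore carry the uncertainty of how shared reads were assigned. Estimated counts of *Tdgf1* were whole numbers in every library, so its reads were not divided with another listed transcript. Whether reads of *Tdgf1-ps1* were counted as *Tdgf1* was not tested.

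*Nodal* and *Tdgf1* both fell over the time course, and the 250 bases before their RefSeq start sites are shown because these are members that moved together. The windows were searched on both strands for CAGAC, a sequence that Smad proteins are known to bind, and for AATCCACA, a site of Foxh1. The match is in capitals. Among all 32851 promoters of this length, 42.2% held CAGAC and 0.718% held AATCCACA.
Nodal, chr10:61417722-61417971, plus strand: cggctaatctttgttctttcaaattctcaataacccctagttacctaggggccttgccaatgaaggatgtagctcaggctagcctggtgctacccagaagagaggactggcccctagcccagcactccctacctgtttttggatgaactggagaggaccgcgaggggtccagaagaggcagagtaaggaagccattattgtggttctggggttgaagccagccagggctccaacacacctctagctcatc
Tdgf1, chr9:110946159-110946408, minus strand: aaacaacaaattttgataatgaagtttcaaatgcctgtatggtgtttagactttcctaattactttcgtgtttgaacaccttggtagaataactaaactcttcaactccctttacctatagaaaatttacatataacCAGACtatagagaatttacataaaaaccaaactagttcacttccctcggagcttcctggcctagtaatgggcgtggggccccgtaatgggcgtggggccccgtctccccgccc

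The *Nodal* window held neither sequence. The *Tdgf1* window held 1 CAGAC and no AATCCACA, and the same counts were found in the window of *Acvr2b*, the only other member in the table of promoters. GC content was 53.2% in the *Nodal* window, 42.0% in that of *Tdgf1* and 72.8% in that of *Acvr2b*, and the median of all promoters was 52.4%.

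The first question was how the pathway's genes move as mESCs leave the naive state. Between day 0 and day 1, *Nodal*, *Gdf3*, *Tdgf1*, *Lefty2* and *Smad7* fell and *Acvr2b*, *Foxh1* and *Skil* rose, which makes 8 of 9 members past an adjusted p of 0.05 in edgeR, against 60.9% of the 14382 genes tested (higher, 3 of 9 against 30.1%; lower, 5 of 9 against 30.8%). Between day 1 and day 2, 4 members passed against 62.1% of all genes, 1 of them higher against 32.5% and 3 lower against 29.6%. Between day 2 and day 3, 3 members passed against 31.5%, 2 higher against 15.9% and 1 lower against 15.6%. Between day 0 and day 3, 8 members passed against 70.9%, 4 higher against 35% and 4 lower against 35.9%. The median absolute log2 fold change of the members between day 0 and day 3 was 1.83, beside 0.51 over all genes tested. Their median signed change was -0.10, beside -0.01. Because the members were chosen with earlier results of these data known, these medians are a description only.

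**Figure D1:**
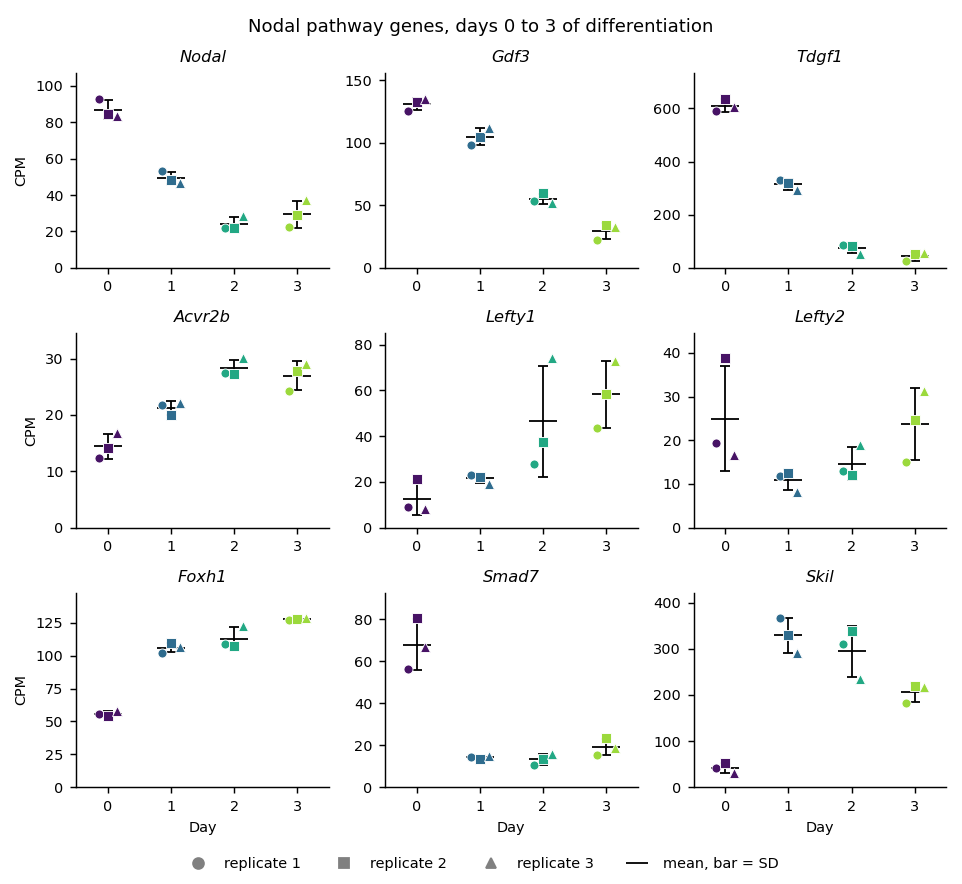
CPM of the 9 members on days 0 to 3 (linear axes from 0). Each symbol is a library, bars give the mean and SD of 3 libraries; *Nodal*, *Gdf3* and *Tdgf1* step down, *Skil* and *Foxh1* are higher in all libraries of days 1 to 3 than on day 0, and *Smad7* is highest on day 0 (56.2 to 80.6 CPM).

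*Nodal*, the ligand that names the pathway, lay at 93.0, 84.7 and 83.4 CPM on day 0, at 53.0, 48.4 and 46.6 CPM on day 1, at 21.8, 21.7 and 28.4 CPM on day 2 and at 22.5, 28.8 and 37.3 CPM on day 3. The libraries of days 0, 1 and 2 did not overlap, and those of days 2 and 3 did. *Nodal* fell by 0.82 on the log2 scale from day 0 to day 1 (SE 0.14, adjusted p = 0.000207 in edgeR) and by 1.04 from day 1 to day 2 (SE 0.15, adjusted p = 5.83e-05). From day 2 to day 3 its log2 fold change was 0.30 (95% interval -0.04 to 0.64, adjusted p = 0.175), and without day 3 replicate 1 it was 0.47 (adjusted p = 0.0135).

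*Gdf3* encodes a second TGF-β family ligand, which can act through the same coreceptor. It lay between 125 and 135 CPM on day 0, between 98.1 and 111 CPM on day 1, between 52.2 and 59.7 CPM on day 2 and between 22.1 and 34.1 CPM on day 3. No 2 days overlapped, and it was the only member that passed the test at every step. Its falls were 0.32 (SE 0.11, adjusted p = 0.0161 in edgeR), 0.93 (SE 0.11) and 0.90 (SE 0.12) on the log2 scale. The first of these was lost without day 0 replicate 3 (a fall by 0.30, adjusted p = 0.0558) and without day 1 replicate 1 (a fall by 0.28, adjusted p = 0.0701).

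*Tdgf1*, the coreceptor, started as the most abundant member. It lay at 591, 637 and 604 CPM on day 0, at 331, 318 and 293 CPM on day 1, at 85.9, 83.9 and 52.7 CPM on day 2 and at 24.1, 50.6 and 57.1 CPM on day 3. Its level on day 3 was 14.0-fold lower than on day 0, which was the largest change of any member between any days compared, at log2 -3.80 (SE 0.30, adjusted p = 3.27e-06 in edgeR). The steps to day 1 (-0.96, SE 0.26, adjusted p = 0.0115) and to day 2 (-2.08, SE 0.28, adjusted p = 0.000197) passed. The libraries of days 2 and 3 overlapped, and the step between them did not pass (-0.76, SE 0.30, adjusted p = 0.0846), except without day 2 replicate 3 (-0.95, adjusted p = 0.0396).

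*Acvr2b*, an activin type II receptor, moved the other way and by less. It lay between 12.4 and 16.8 CPM on day 0, between 19.9 and 22.1 CPM on day 1, between 27.3 and 30.1 CPM on day 2 and between 24.2 and 29.1 CPM on day 3. The rise was 0.55 on the log2 scale to day 1 (SE 0.11, adjusted p = 0.000251 in edgeR) and 0.41 more to day 2 (SE 0.10, adjusted p = 0.00201). Between days 2 and 3 the groups overlapped, with a log2 fold change of -0.07 (95% interval -0.28 to 0.14).

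The antagonists *Lefty1* and *Lefty2* both bind Nodal and its coreceptor and block signaling, yet their time courses differed in these libraries. *Lefty1* lay at 8.92, 21.1 and 7.95 CPM on day 0, at 23.1, 22.3 and 19.1 CPM on day 1, at 27.7, 37.6 and 74.1 CPM on day 2 and at 43.6, 58.6 and 72.8 CPM on day 3. Every day 3 library was above every day 0 library, and the rise from day 0 to day 3 was 4.49-fold (log2 2.17, SE 0.47, adjusted p = 0.00283 in edgeR). No single step passed: the log2 fold change to day 1 was 0.73 (SE 0.50, adjusted p = 0.242), to day 2 1.11 (SE 0.45, adjusted p = 0.0589) and to day 3 0.32 (SE 0.41, adjusted p = 0.599). The step to day 2 passed in DESeq2 (adjusted p = 0.0375), with upper-quartile normalization (adjusted p = 0.0484), without day 0 replicate 2 (1.10, adjusted p = 0.0371) and without day 2 replicate 1 (1.37, adjusted p = 0.0292).

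*Lefty2* lay at 19.5, 38.8 and 16.7 CPM on day 0, at 11.9, 12.5 and 8.16 CPM on day 1, at 12.95, 12 and 19.01 CPM on day 2 and at 15.1, 24.7 and 31.3 CPM on day 3. Day 0 replicate 2 was the highest library for both *Lefty* genes on that day, and also for *Tdgf1*, *Smad7* and *Skil*. The fall of *Lefty2* to day 1 was 1.21 on the log2 scale (SE 0.41, adjusted p = 0.0286 in edgeR). It was lost without day 0 replicate 2 (a fall by 0.74, adjusted p = 0.0891) and without any 1 of the day 1 libraries (adjusted p between 0.0521 and 0.0904). The same held when only the libraries of days 0 and 1 were fitted. From day 0 to day 3 the log2 fold change was -0.10 (95% interval -0.95 to 0.76), and it turned to 0.38 without day 0 replicate 2 and to 0.15 without day 3 replicate 1, neither past the test.

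On the scale of TPM, which allows for transcript length, *Lefty1* made up 42.7%, 47.1% and 43.6% of the 2 *Lefty* genes together in the day 0 libraries and between 74.4% and 86.4% in those of days 1 to 3. The ranges did not overlap. The sum of the 2 genes, which does not depend on how reads were divided between them, was 28.4, 59.9 and 24.6 CPM on day 0, between 27.2 and 35 CPM on day 1, 40.7, 49.6 and 93.1 CPM on day 2 and 58.7, 83.3 and 104 CPM on day 3. Day 0 replicate 2 lay at the level of the lowest day 3 library in this sum, and the other day 0 libraries lay below all day 3 libraries.

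*Foxh1* encodes the transcription factor that brings Smad complexes to their sites. It lay between 54.3 and 57.7 CPM on day 0, between 102 and 110 CPM on day 1, between 107 and 123 CPM on day 2 and between 127 and 129 CPM on day 3. The rise to day 1 was 1.90-fold (log2 0.92, SE 0.06, adjusted p = 2.66e-10 in edgeR), and days 1 and 2 overlapped (log2 0.09, 95% interval -0.04 to 0.22). That step passed with upper-quartile normalization (log2 0.17, adjusted p = 0.0205) and in limma on log2(TPM + 1) (0.20, adjusted p = 0.0116). The small rise from day 2 to day 3 (log2 0.18, SE 0.06, adjusted p = 0.0292) was lost when only the libraries of those days were fitted (adjusted p = 0.0693) and without day 2 replicate 1, day 2 replicate 2 or day 3 replicate 3 (log2 between 0.14 and 0.18, adjusted p between 0.0709 and 0.126).

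*Smad7* and *Skil* both act as inhibitors of the pathway, Smad7 at the receptor and Skil (SnoN) on Smad complexes in the nucleus, and both are known to respond to it. They went in opposite directions after day 0. *Smad7* (chr18:75367365-75395935) lay at 56.2, 80.6 and 66.9 CPM on day 0 and at 14.1, 13.6 and 14.9 CPM on day 1, a 4.78-fold fall (log2 -2.26, SE 0.16, adjusted p = 3.06e-08 in edgeR). It lay at 10.5, 13.6 and 15.6 CPM on day 2 and at 15.5, 23.3 and 18.8 CPM on day 3, and all libraries of days 1 to 3 stayed below those of day 0. The step to day 3 (log2 0.54, SE 0.18, adjusted p = 0.0344) overlapped between the days and was lost with no filter on low counts (adjusted p = 0.0517) and without day 0 replicate 3, day 2 replicate 1, day 2 replicate 2, day 3 replicate 2 or day 3 replicate 3 (log2 between 0.39 and 0.56, adjusted p between 0.0514 and 0.127).

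*Skil* lay at 41.0, 52.8 and 30.8 CPM on day 0 and at 367, 329 and 291 CPM on day 1, a 7.89-fold rise (log2 2.98, SE 0.21, adjusted p = 1.19e-06 in edgeR) and the largest rise of any member. It lay at 311, 339 and 234 CPM on day 2 and at 182, 219 and 217 CPM on day 3, still 4.94-fold above day 0 (log2 2.30, SE 0.21, adjusted p = 4.68e-06). The libraries of days 2 and 3 did not overlap, and the step between them did not pass (log2 -0.51, SE 0.19, adjusted p = 0.0658). It passed when only the libraries of those days were fitted (-0.52, adjusted p = 0.0332), without day 0 replicate 2 (-0.50, adjusted p = 0.0391), without day 0 replicate 3 (-0.52, adjusted p = 0.0374) and without day 2 replicate 3 (-0.64, adjusted p = 0.0254). The ratio of *Skil* to *Smad7* in TPM was between 0.289 and 0.457 on day 0, between 12.2 and 16.2 on day 1, between 9.39 and 18.6 on day 2 and between 5.89 and 7.32 on day 3.

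Levels of different genes were compared in TPM. On day 0 *Tdgf1* (608 ± 23.8 TPM, SD, n = 3) stood above *Gdf3* (119 ± 3.96 TPM), which stood above *Foxh1* (83.1 ± 2.17 TPM) and *Nodal* (80.1 ± 5.29 TPM), whose ranges overlapped. *Smad7* (28.1 ± 5.03 TPM), *Lefty2*, *Acvr2b*, *Lefty1* and *Skil* (10.8 ± 2.91 TPM) followed, each overlapping its neighbour. By day 3 *Foxh1* (202 ± 5.33 TPM) was the highest, apart from all others. *Lefty1* (75.8 ± 20.4 TPM), *Skil* (56.6 ± 6.25 TPM), *Tdgf1* (46.6 ± 19.1 TPM), *Acvr2b* (33.0 ± 3.56 TPM), *Nodal* (29.0 ± 7.87 TPM), *Gdf3* (28.7 ± 6.49 TPM) and *Lefty2* (18.9 ± 6.85 TPM) followed, with each overlapping the next, and *Smad7* (8.43 ± 1.67 TPM) was the lowest. In the 3 day 3 libraries, replicate 1 was the lowest for all 9 members, and its summed neural markers were the highest of the 3 at 358 CPM, beside 294 and 291 CPM; whether these go together was not tested.

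**Figure D2:**
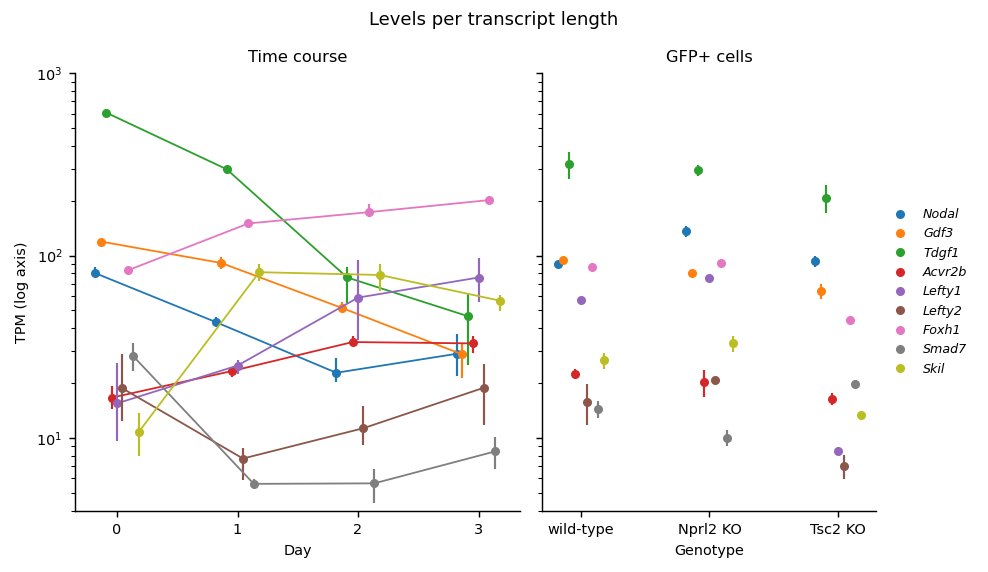
TPM of the 9 members on a log axis, by day (left) and genotype (right). Points are means, vertical lines the range over 3 libraries (days) or 2 libraries (genotypes); *Tdgf1* goes from 608 TPM on day 0 to 46.6 TPM on day 3, and *Lefty1* from 57.2 TPM in wild-type to 8.46 TPM in *Tsc2* KO.

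Another 37 genes of the pathway, its ligands, processing enzymes, receptors, Smads and Smad partners, were listed, and 32 passed the filter on low counts in the time course. *Inhba*, *Tgfb3*, *Cfc1*, *Acvr1c* and *Cer1*, which encodes another Nodal antagonist, were too low to test. From day 0 to day 1, 5 of 32 rose beside 30.1% of all genes tested, and 14 fell beside 30.8% (19 called beside 60.9%). From day 1 to day 2, 12 rose beside 32.5% and 7 fell beside 29.6% (19 called beside 62.1%). In both steps the share called in either direction was near that of all genes, but in the first more genes fell than rose. From day 2 to day 3, 10 rose beside 15.9% and 5 fell beside 15.6% (15 of 32 called beside 31.5%). From day 0 to day 3, 13 rose beside 35% and 10 fell beside 35.9% (23 of 32 called beside 70.9%). *Inhbb*, which encodes the subunit of activin B, lay at 20.1, 17.3 and 28.4 CPM on day 0 and at 1.34, 0.836 and 2.04 CPM on day 1 (log2 -3.97, SE 0.27, adjusted p = 7.73e-10 in edgeR). On days 2 and 3 it held at most 0.228 CPM in any library, which is 3 counts. *Pcsk6*, which encodes a convertase that cleaves pro-Nodal, fell from between 86.5 and 105 CPM on day 0 to between 16.8 and 20.1 CPM on day 3 (log2 -2.42, SE 0.09). *Furin*, which encodes another convertase of Nodal, was between 25.2 and 30.1 CPM on day 0, fell on day 1 (log2 -1.34, SE 0.15) and rose from between 9.88 and 11.9 CPM on day 1 to between 28.0 and 40.7 CPM on day 2 (log2 1.62, SE 0.14). *Smad3* took the same course, from between 20.1 and 26.7 CPM on day 0 to between 13.1 and 14.7 CPM on day 1 (log2 -0.78, SE 0.15) and between 30.4 and 40.9 CPM on day 2 (log2 1.29, SE 0.14). *Tgfb2* rose from at most 1.32 CPM to between 3.11 and 10.9 CPM between days 2 and 3, and *Inha* and *Tgfbr2*, also among the largest changes, were at most 1.22 and 3.54 CPM in any time-course library.

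The genes whose levels ran most like those of each member over the 12 time-course libraries were found by Pearson's r of log2(CPM + 1) among 9303 genes with a mean of at least 10 CPM, as a description, since any 2 genes that step at day 1 score high. The closest was *Ddx59* for *Nodal* (r = 0.98), *Pecam1* for *Gdf3* (0.99), *Syf2* for *Tdgf1* (0.99), *Rbpms* for *Acvr2b* (0.98), *Homez* for *Lefty1* (0.95), *Rad9a* for *Lefty2* (0.87), *Gja1* for *Foxh1* (0.99), *Patz1* for *Smad7* (0.98) and *G2e3* for *Skil* (0.99). Over the 6 GFP+ libraries, which played no part in the choice, r was 0.97 for *Foxh1* with *Gja1*, 0.95 for *Skil* with *G2e3* and 0.91 for *Lefty1* with *Homez*. It was 0.81 for *Acvr2b* with *Rbpms* and 0.70 for *Tdgf1* with *Syf2*. Negative values were -0.58 for *Nodal* with *Ddx59*, -0.13 for *Gdf3* with *Pecam1*, -0.74 for *Smad7* with *Patz1* and -0.52 for *Lefty2* with *Rad9a*. Here any 2 genes that differ in the same KO score high, so these values are a description too.

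The second question was how the pathway's genes differ in GFP+ cells that lack *Nprl2* or *Tsc2*. *Tsc2* KO had lower *Lefty1*, *Lefty2*, *Gdf3*, *Foxh1*, *Skil* and *Acvr2b* and higher *Smad7* than wild-type, which makes 7 of 9 members past the test, against 29.1% of the 13725 genes tested (higher, 1 of 9 against 14.9%; lower, 6 of 9 against 14.2%). *Nprl2* KO had higher *Nodal* and *Lefty1*, 2 of 9 members against 6.43% of all genes (higher, 2 against 2.78%; lower, 0 against 3.66% in edgeR, also 0 in DESeq2, with *Smad7* the 1 member lower at an unadjusted p under 0.05). Between the KO genotypes themselves 7 members passed, against 34.2% (higher in *Tsc2* KO, 1 against 17.5%; lower, 6 against 16.6%). The median log2 fold change of the 9 members was -0.65 in *Tsc2* KO beside 0.00 over all genes tested, and 0.09 in *Nprl2* KO beside 0.00. These medians too are a description of members chosen with earlier results known. Both KO comparisons share the 2 wild-type libraries. Markers of cell state differed between the genotypes as well: the summed level of 7 pluripotency markers was between 3092 and 3148 CPM in wild-type, between 2498 and 2705 CPM in *Nprl2* KO and between 4693 and 4734 CPM in *Tsc2* KO, and that of the 6 formative markers between 876 and 1015 CPM, between 1214 and 1407 CPM and between 223 and 232 CPM. Their part in the results was not tested.

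**Figure D3:**
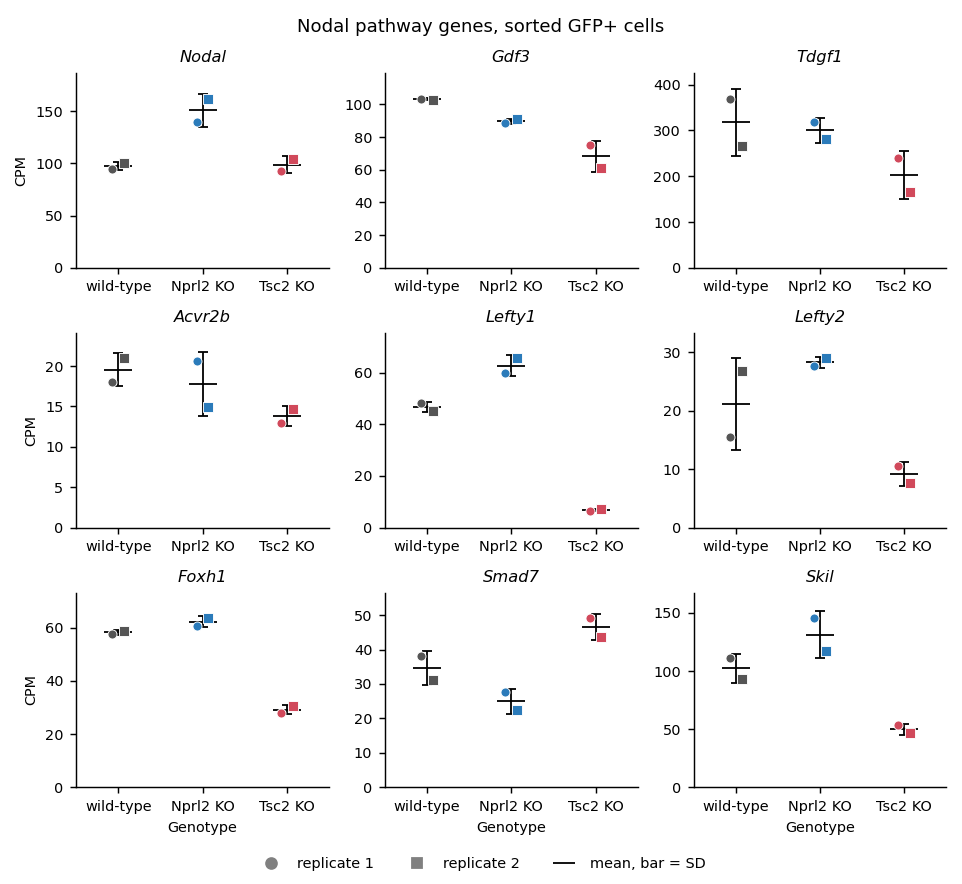
CPM of the 9 members in sorted GFP+ cells (linear axes from 0). Each symbol is a library, bars give the mean and SD of 2 libraries. Both *Tsc2* KO libraries lie below all others for *Lefty1*, *Lefty2*, *Foxh1*, *Skil*, *Gdf3*, *Tdgf1* and, narrowly, *Acvr2b*, and above all others for *Smad7*.

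*Lefty1* was by far the most changed member in *Tsc2* KO. It lay at 48.2 and 45.3 CPM in wild-type cells, at 60.1 and 65.7 CPM in cells lacking *Nprl2* and at 6.49 and 7.03 CPM in cells lacking *Tsc2*, with no overlap between any genotypes. Its level in *Tsc2* KO was 6.91-fold below that of wild-type (log2 -2.79, SE 0.12, adjusted p = 5.00e-08 in edgeR) and 9.29-fold lower than in *Nprl2* KO (log2 -3.22, SE 0.12, adjusted p = 5.25e-09). Its rise in *Nprl2* KO was 1.34-fold (log2 0.43, SE 0.10, adjusted p = 0.0232). This rise did not pass in DESeq2 (adjusted p = 0.0733), in limma on log2(TPM + 1) (adjusted p = 0.0507) or without any 1 of the 4 libraries compared (log2 between 0.36 and 0.48, adjusted p between 0.0533 and 0.161).

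*Lefty2* lay at 15.5 and 26.7 CPM in wild-type cells, at 27.6 and 28.9 CPM in cells lacking *Nprl2* and at 10.6 and 7.68 CPM in cells lacking *Tsc2*. The wild-type libraries stood apart from each other, and both *Tsc2* KO libraries lay below them. The fall in *Tsc2* KO was 2.29-fold (log2 -1.20, SE 0.27, adjusted p = 0.0143 in edgeR), and without *Tsc2* KO replicate 2, the library with fewer fibroblast transcripts, it was -0.97 (adjusted p = 0.0824). Against *Nprl2* KO the fall was 3.11-fold (log2 -1.64, SE 0.26, adjusted p = 0.00230). *Lefty2* in *Nprl2* KO had a log2 fold change of 0.44 (95% interval -0.14 to 1.02, adjusted p = 0.356), and 0.86 without wild-type replicate 2 (adjusted p = 0.0261).

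The 2 *Lefty* genes lie on chromosome 1, where the median log2 fold change of the 747 genes tested was 0.37 in *Tsc2* KO against wild-type, beside 0.00 over all genes, and -0.01 in *Nprl2* KO. Both *Lefty* genes fell while the median of their chromosome was above 0. Their summed level was 63.8 and 72.0 CPM in wild-type, 87.7 and 94.6 CPM in *Nprl2* KO and 17.1 and 14.7 CPM in *Tsc2* KO. *Lefty1* made up 50.01% and 59.8% of the TPM of both in *Tsc2* KO and between 73.5% and 83.5% in the other GFP+ libraries.

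The 2 ligands, *Nodal* and *Gdf3*, differed from each other. *Nodal* lay at 94.6 and 100.4 CPM in wild-type cells, at 140 and 162 CPM in cells lacking *Nprl2* and at 93.0 and 104 CPM in cells lacking *Tsc2*. It was 1.55-fold higher in *Nprl2* KO than in wild-type (log2 0.63, SE 0.09, adjusted p = 0.00168 in edgeR) and past the test in each of 13 other settings (adjusted p at most 0.0218). In *Tsc2* KO the libraries overlapped those of wild-type, and the difference was log2 0.02 (95% interval -0.18 to 0.22), and *Nodal* was lower than in *Nprl2* KO (log2 -0.61, SE 0.09, adjusted p = 0.000237). *Gdf3* lay at 104 and 103 CPM in wild-type cells, at 88.4 and 90.8 CPM in cells lacking *Nprl2* and at 75.0 and 61.4 CPM in cells lacking *Tsc2*. It fell by 0.60 on the log2 scale in *Tsc2* KO (SE 0.09, adjusted p = 0.000589) and had a log2 fold change of -0.20 in *Nprl2* KO (95% interval -0.41 to 0.00, adjusted p = 0.235). The difference in *Gdf3* between the KO genotypes (log2 -0.40, SE 0.09, adjusted p = 0.00628) was lost without *Tsc2* KO replicate 2 (log2 -0.25, adjusted p = 0.0982).

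*Tdgf1* lay at 370 and 266 CPM in wild-type cells, at 319 and 281 CPM in cells lacking *Nprl2* and at 240 and 166 CPM in cells lacking *Tsc2*. The *Tsc2* KO libraries were below all others, and neither comparison passed (against wild-type log2 -0.65, 95% interval -1.42 to 0.12, adjusted p = 0.174 in edgeR; against *Nprl2* KO log2 -0.57, adjusted p = 0.208). With no filter on low counts both comparisons of *Tdgf1* passed (adjusted p = 5.05e-17 and 3.47e-13 in edgeR), on the same libraries. That setting also moved the genes past the threshold in *Nprl2* KO against wild-type from 883 to 1667, and the cause of such shifts was not tested. In 10 of 13 alternative settings each comparison of *Tdgf1* stayed outside the threshold. Without *Tsc2* KO replicate 1 the log2 fold changes were -0.94 and -0.86, which rest on replicate 2 alone, the library with fewer fibroblast transcripts. With each library left out in turn, they ranged from -0.94 to -0.40 and from -0.86 to -0.31. *Acvr2b* lay at 18.1 and 21.0 CPM in wild-type cells, at 20.6 and 14.9 CPM in cells lacking *Nprl2* and at 13.0 and 14.7 CPM in cells lacking *Tsc2*. Its fall in *Tsc2* KO was close to the threshold (log2 -0.49, SE 0.17, adjusted p = 0.0490) and was lost in DESeq2 (adjusted p = 0.129), in limma (adjusted p = 0.0829) and without any 1 of the 4 libraries compared (log2 between -0.61 and -0.38, adjusted p between 0.0615 and 0.214).

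*Foxh1*, *Skil* and *Smad7* separated *Tsc2* KO from both other genotypes. *Foxh1* lay at 57.7 and 59.0 CPM in wild-type cells, at 60.7 and 63.7 CPM in cells lacking *Nprl2* and at 28.0 and 30.4 CPM in cells lacking *Tsc2*, a 2.00-fold fall from wild-type (log2 -0.997, SE 0.09, adjusted p = 1.55e-05 in edgeR). *Skil* lay at 111 and 93.5 CPM in wild-type cells, at 146 and 117 CPM in cells lacking *Nprl2* and at 53.3 and 46.3 CPM in cells lacking *Tsc2*, a 2.06-fold fall from wild-type (log2 -1.04, SE 0.13, adjusted p = 0.000476). *Skil* in *Nprl2* KO was above wild-type in both libraries without passing the test (log2 0.35, 95% interval 0.07 to 0.64, adjusted p = 0.143). It passed with no filter on low counts and with a replicate block.

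*Smad7* lay at 38.2 and 31.3 CPM in wild-type cells, at 27.5 and 22.3 CPM in cells lacking *Nprl2* and at 49.2 and 43.8 CPM in cells lacking *Tsc2*. The KO libraries lay on either side of wild-type, and the difference between the KO genotypes was 1.87-fold (log2 0.90, SE 0.13, adjusted p = 0.000273 in edgeR). The rise in *Tsc2* KO against wild-type (log2 0.41, SE 0.13, adjusted p = 0.0335) was lost in DESeq2 (adjusted p = 0.0825), in limma (adjusted p = 0.0588), without wild-type replicate 2 (0.28, adjusted p = 0.200), and without *Tsc2* KO replicate 1 (0.33, adjusted p = 0.181) or 2 (0.50, adjusted p = 0.0617). Its level in *Nprl2* KO was just outside the threshold (log2 -0.49, SE 0.14, adjusted p = 0.0544), and it passed without wild-type replicate 2 (-0.62, adjusted p = 0.0394) and without *Nprl2* KO replicate 1 (-0.66, adjusted p = 0.0491). The ratio of *Skil* to *Smad7* in TPM was 1.82 and 1.87 in wild-type, 3.30 in both *Nprl2* KO libraries and 0.682 and 0.666 in *Tsc2* KO.

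**Figure D4:**
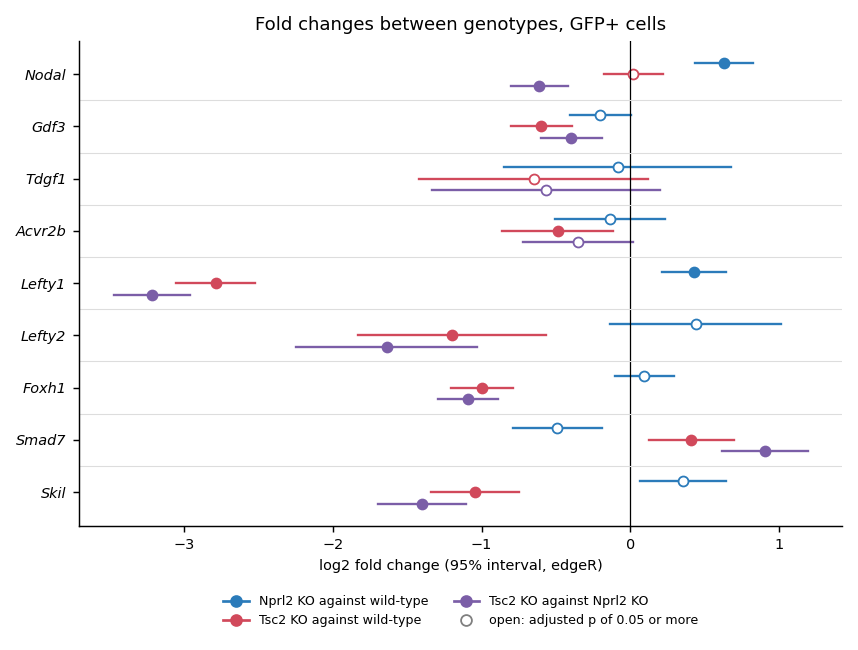
log2 fold changes of the 9 members between the GFP+ genotypes, with 95% intervals from edgeR (2 libraries a genotype); filled points passed an adjusted p of 0.05. *Lefty1* stands apart at -2.79 and -3.22 in the comparisons of *Tsc2* KO, and the Nprl2 KO comparison passes for *Nodal* and *Lefty1*.

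*Skil* is the only member with more than 1 listed transcript, and its transcripts were not in the same balance in all groups. The transcripts of 7066 and 6928 bases held nearly all of its TPM, and the third, of 6609 bases, held at most 0.867%. The 7066-base transcript made up 45.1% and 57.7% of *Skil* in wild-type cells, 46.2% and 33.1% in cells lacking *Nprl2* and 22.5% and 18.8% in cells lacking *Tsc2*, so that *Tsc2* KO lay below all other GFP+ libraries. In TPM this transcript was 13.2 and 13.8 in wild-type and 3.17 and 2.35 in *Tsc2* KO, while the 6928-base transcript was 16.04 and 10.2 in wild-type and 10.9 and 10.2 in *Tsc2* KO. In the time course its share was 42.1%, 16.3% and 36.1% on day 0 and between 35.4% and 52.2% on days 1 to 3. These shares are kallisto estimates for transcripts of near-equal length, with no test.

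**Figure D5:**
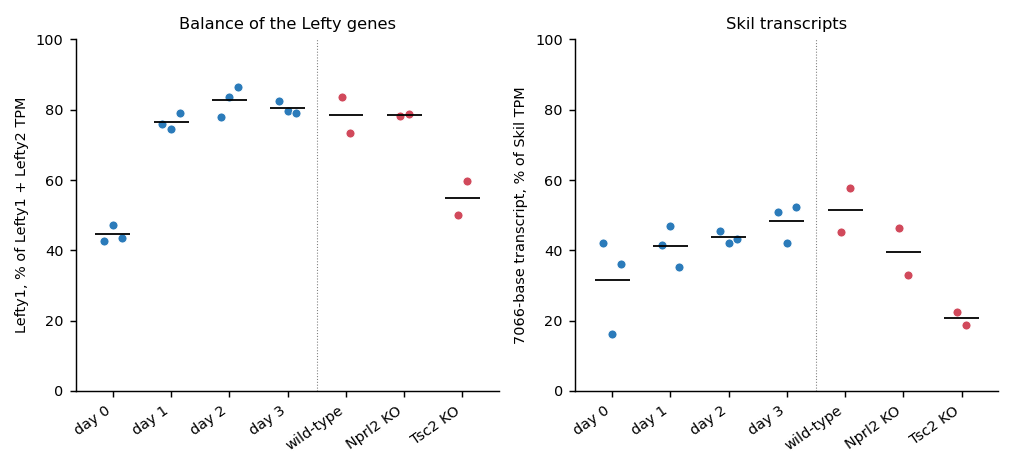
Share of *Lefty1* in the summed TPM of both *Lefty* genes (left) and share of the 7066-base transcript in the TPM of *Skil* (right), in percent, for each library (points) with group means (lines). The day 0 and *Tsc2* KO groups have the lowest mean shares in both panels, and the ranges of day 0 and day 1 overlap for *Skil*.

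Of the other 37 pathway genes, 33 were tested in GFP+ cells. Of these, 30 did not pass in *Nprl2* KO and 0 rose, beside 2.78% of all genes called higher. The other 3 fell, beside 3.66% called lower and 6.43% called in either direction. These were *Pcsk6* (67.7 and 58.6 CPM in wild-type, 43.2 and 38.7 CPM in *Nprl2* KO, log2 -0.63, SE 0.10, adjusted p = 0.00441 in edgeR) and 2 type I receptors, *Acvr1b* (28.6 and 28.9 against 20.5 and 18.8 CPM, log2 -0.55, SE 0.12, adjusted p = 0.0175) and *Tgfbr1* (58.2 and 63.3 against 40.8 and 44.3 CPM, log2 -0.51, SE 0.10, adjusted p = 0.00843). In *Tsc2* KO 6 rose and 4 fell against wild-type, 10 of 33 beside 29.1% of all genes, and 6 rose and 5 fell against *Nprl2* KO, 11 of 33 beside 34.2%, both near the share of all genes. The median log2 fold change of the 33 was -0.09 in *Tsc2* KO and -0.07 in *Nprl2* KO, beside 0.00 over all genes in both.

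*Inhbb* rose in *Tsc2* KO, from 6.27 and 3.12 CPM in wild-type to 27.2 and 15.5 CPM (log2 2.14, SE 0.37, adjusted p = 0.00589 in edgeR), and lay at 3.88 and 3.56 CPM in *Nprl2* KO. *Inhbb* also lies on chromosome 1, where the median log2 fold change of the 747 genes tested was 0.37 in *Tsc2* KO against wild-type. The part of this shift in the rise of *Inhbb* was not tested. *Pcsk6*, lower in *Nprl2* KO, was higher in *Tsc2* KO at 117 and 132 CPM (log2 0.97, SE 0.10, adjusted p = 2.67e-05). *Tgif2*, which encodes a corepressor of Smads, fell from 91.1 and 81.0 CPM to 50.3 and 54.2 CPM (log2 -0.72, SE 0.09, adjusted p = 0.000133). Between the KO genotypes, *Fst*, which encodes the activin antagonist follistatin, was lower in *Tsc2* KO (5.05 and 5.14 CPM) than in *Nprl2* KO (10.9 and 20.4 CPM, log2 -1.63, SE 0.28, adjusted p = 0.00194).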

How the data were processed

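The authors sequenced 12 time-course libraries (days 0 to 3, 3 each) and 6 libraries of sorted GFP+ cells (3 genotypes, 2 each). For the GFP+ cells the study names a stranded mRNA library kit. The deposited files hold estimated counts and TPM per RefSeq transcript from kallisto version 0.42.1, with mm10 named in the submitters' processing notes, and a deposited table holds TPM summed per gene. Tables of the authors' DESeq2 comparisons (fold changes and p-values) were not used.

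Here estimated counts were summed over the transcripts of a gene and rounded. Of 34079 transcripts, 33709 were named by RefSeq on GRCm38.p6, 196 by GENCODE M21 and 174 were left out, which gave 24296 genes and left between 1.65% and 3.57% of counts per library without a gene. Total estimated counts were between 8610357 and 15305054 per library. Intervals and floors of 3 counts cover counting error only.

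The time course and the GFP+ libraries were fitted apart in edgeR 4.0.16 (R 4.3.3; filterByExpr, TMM, robust quasi-likelihood test) on 14382 and 13725 genes, with Benjamini-Hochberg adjustment over all of them and a threshold of 0.05. The standard error is the log2 fold change over the square root of F, and 95% intervals use the t quantile. Fits were tested on simulated counts. Alternatives were DESeq2 1.42.0, upper-quartile normalization, no filter or at least 10 counts in every library, a replicate block, limma 3.58.1 on log2(TPM + 1), only the groups compared, and leaving out each library in turn. Libraries of a group differed by more than sampling noise (chi-square per gene between 1.78 and 8.47).

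All 9 members are named in every comparison, with up to 3 other pathway genes of the largest change past the threshold and, for each member, the gene of the highest r. Values of 1 of these pathway genes and 1 pair of sequences are not reported here. The members and all gene lists were chosen with earlier results of these data known.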

Additional observations from a re-analysis of the deposited data

How the results depend on the processing

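Of 63 fold changes of members (9 genes in 7 comparisons), 37 kept direction and side of the threshold in every alternative, and of the 39 that passed, 30 did so. Between days 2 and 3 the count of members past the threshold was 1 to 5 when 1 library was left out (3 otherwise), and that of all genes 2969 to 5055 (4525 otherwise), the lowest without day 2 replicate 2. For *Nprl2* KO against wild-type, 2 members passed, and 1 did in DESeq2, 1 in limma, 5 without a filter and 1 to 3 with 1 library left out, while 883 genes passed and 1667 did without a filter and 339 to 783 with 1 library left out, the lowest without *Nprl2* KO replicate 2. For *Tsc2* KO the counts were 4 to 7 members and 2225 to 3974 genes against wild-type (7 and 3996 otherwise) and 2974 to 4791 genes against *Nprl2* KO (4692 otherwise), each lowest without *Tsc2* KO replicate 2. In *Nprl2* KO against wild-type the fit without a filter added *Lefty2* and *Skil*, both higher, and *Smad7*, lower. Where an arm kept 1 library, it was assumed to vary like the other groups. The cause of these shifts was not tested.

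Replicate numbers are shared by the groups, but no label says that a number marks a shared culture or day. Same-numbered libraries had correlations of their deviations between -0.24 and 0.28 in the time course and of 0.42, 0.34 and 0.22 in GFP+ cells, with only 2 pairs. With the replicate block 4 members and 2072 genes passed in *Nprl2* KO against wild-type, adding *Smad7* and *Skil*. *Tdgf1* passed with the block in *Tsc2* KO against wild-type (adjusted p = 2.15e-05) and against *Nprl2* KO (3.86e-05), and *Skil* between days 2 and 3 (0.0279). The block changed no other call of a member.

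Small log2 fold changes turned sign with 1 library left out, without passing the test. Between days 0 and 3 *Lefty2* ranged from -0.35 to 0.38 (and was 0.043 in limma on log2(TPM + 1), with -0.10 in edgeR), positive without day 0 replicate 2 and, at 0.15, without day 3 replicate 1. *Smad7* between days 1 and 2 ranged from -0.25 to 0.036, positive without day 2 replicate 1, and *Acvr2b* between days 2 and 3 from -0.12 to 0.015, positive without day 3 replicate 1. In *Nprl2* KO *Tdgf1* ranged from -0.30 to 0.17, positive without wild-type replicate 1 or *Nprl2* KO replicate 2, and *Acvr2b* from -0.39 to 0.084, positive without *Nprl2* KO replicate 2. In *Tsc2* KO against wild-type *Nodal* ranged from -0.063 to 0.10, negative without wild-type replicate 1 or *Tsc2* KO replicate 2. In limma the share of calls that were higher was 63.8% between days 1 and 2 and 61.7% between the KO genotypes, beside 52.4% and 51.3% in edgeR.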
